A study of Mus musculus with 4 samples.

Results

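Interferon-stimulated genes were followed in adherent mouse bone marrow cells that had been given heme or its vehicle, in cultures labelled as wild type or as lacking Bach1. A list of 41 such genes was taken, and each was read from the brightest probe set that the array annotation assigns to it alone. By this rule 37 of the 41 were measured, out of 19938 genes measured on the array. Ifi204, Ifi47 and Gbp2 stood only on probe sets annotated to several genes, and Ifi44 on none that was listed, so these 4 were not analysed here.

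The cells came from wild-type mice, Bach1 (+/+), and from mice labelled Bach1 (-/-), both on the B6 background. Marrow of either genotype was grown with 20 ng/ml GM-CSF, and after 6 days it received 40 µM heme (the unit is written µm in the labels) or a vehicle of saline with ammonium hydroxide. Cells that still adhered 24 hours later gave the RNA. Each of the 4 groups held 1 array, the labels do not say how many animals a culture came from, and no difference below has a replicate check, an error or a p-value. GM-CSF cultures hold macrophages and dendritic-type cells side by side, and in such bulk samples fewer cells of a type and less RNA per cell cannot be told apart.

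Bach1 itself had signals of 212 (vehicle) and 264 (heme) for the wild type and 211 and 204 for the knockout. Its probe set thus left the genotypes unseparated, where its probes lie relative to the deletion is unknown here, and the knockout is called labelled throughout. Hmox1, the heme-degrading enzyme whose gene Bach1 represses, did differ between the vehicle arrays, at 1827 in wild type against 9047 in the labelled knockout (4.95-fold higher). Spic, a transcription factor of red pulp macrophages, was 17.5-fold higher there (17.0 against 298). Median signals of the 4 arrays lay between 30.4 and 31.4. Macrophage markers were well represented, with 11 of 11 measured members at level on at least 1 array, a summed signal between 18915 and 20722, and Lyz2 between 9990 and 10705. Markers of B, T and NK cells were near the bottom of the scale, with 10 of 11 at level on no array and a summed signal between 142 and 168.

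Interferons are secreted proteins that bind cell surface receptors and activate the JAK kinases, which phosphorylate STAT proteins. Type I interferon acts mainly through a DNA element called the interferon-stimulated response element (ISRE), and interferon gamma through the gamma-activated site (GAS). The genes switched on encode sensors of viral RNA and DNA, enzymes that degrade or edit RNA, GTPases that attack vacuoles of microbes, chemokines, and factors that amplify or end the response. Macrophages keep many of these genes at a low tonic level without infection. Bach1 is a repressor that is released from DNA by heme.

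The promoters of the genes were set beside the values first, because an ISRE is what defines much of the family. RefSeq windows (GRCm38.p6) of 300 bases, from 250 before to 50 after each start site, matched 29 of the 37 measured genes. The ISRE core GAAANNGAAA, searched on both strands, stood in at least 1 window of 15 of these 29 genes (51.7%) and of 3.99% of all 27025 genes in the promoter table. Counted by window, it stood in 15 of 37 windows of the listed genes (40.5%) and 3.44% of all windows. The GAS core TTCNNNGAA stood in 8 of 29 (27.6%) and 9.55% of all genes, and TGACNNNGC, the core of the element to which Bach1 and NRF2 bind, in 6 of 29 (20.7%) and 13.99% of all. The last motif was added after the values had been seen. A match is a description of the letters and shows no binding.

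**Figure D1:**
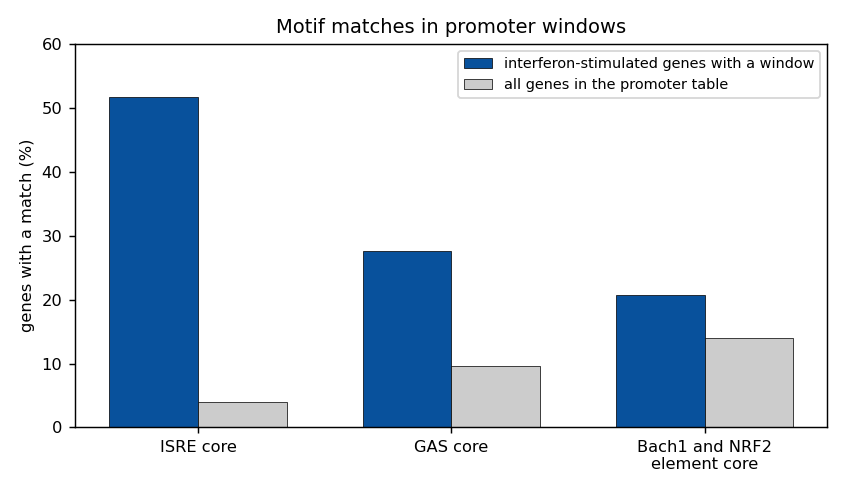
Share of genes (%) with at least 1 match to each motif in their promoter windows, for the 29 interferon-stimulated genes with a window (blue) and for all 27025 genes of the promoter table (grey). The ISRE core stood in 51.7% and 3.99%, the GAS core in 27.6% and 9.55%, and the Bach1 and NRF2 element core in 20.7% and 13.99%.

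The stretches below belong to the 5 genes that differed 2-fold or more in some comparison, and to Cxcl10 and Rsad2, which have an ISRE core and did not reach 2-fold. Capitals mark the ISRE core, on either strand, except in Isg20, whose windows have no ISRE core and where they mark the GAS core, and in Slfn5, where the second run of capitals marks the Bach1 and NRF2 element core on the opposite strand. The Bach1 and NRF2 element core also stood in windows of Cxcl10, Rsad2 and Isg20, outside the stretches printed for them. In Gbp3 and Oas1a, 2 overlapping ISRE matches form 1 run. All stretches run 5′ to 3′ along the gene and end before its start site. The whole Slfn5 stretch and parts of the Ifi213, Gbp3 and Oas1a stretches lie within the span that RefSeq annotates for the gene, whose model begins further upstream.
Slfn5: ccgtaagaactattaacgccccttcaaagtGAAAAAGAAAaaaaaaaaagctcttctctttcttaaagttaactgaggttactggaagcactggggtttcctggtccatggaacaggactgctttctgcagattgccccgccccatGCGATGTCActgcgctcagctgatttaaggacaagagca
Ifi213: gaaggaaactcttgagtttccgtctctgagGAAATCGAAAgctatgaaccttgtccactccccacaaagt
Gbp3: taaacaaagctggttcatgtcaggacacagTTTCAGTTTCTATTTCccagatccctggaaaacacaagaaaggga
Oas1a: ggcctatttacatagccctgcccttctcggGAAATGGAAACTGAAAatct
Isg20: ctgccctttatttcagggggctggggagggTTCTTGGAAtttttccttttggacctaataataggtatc
Cxcl10: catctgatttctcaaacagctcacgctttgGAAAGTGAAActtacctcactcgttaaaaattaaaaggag
Rsad2: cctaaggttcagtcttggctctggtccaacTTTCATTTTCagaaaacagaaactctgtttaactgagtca

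In GRCm38.p6 these are chr11:82951917-82952101 on the plus strand for Slfn5, chr1:173599306-173599375 on the minus strand for Ifi213, chr3:142559969-142560043 (plus) for Gbp3, chr5:120907526-120907575 (minus) for Oas1a, chr7:78913321-78913389 (plus) for Isg20, chr5:92349063-92349132 (minus) for Cxcl10 and chr12:26456533-26456602 (minus) for Rsad2. The ISRE core began 155 bases before the start site in Slfn5, 73 in Ifi213, 45 and 39 in Gbp3, 20 and 14 in Oas1a, 213 in Cxcl10 and 120 in Rsad2.

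The family stood somewhat above the typical gene, with a median signal of 37.1 to 53.7 on the 4 arrays beside 33.4 to 34.7 for all genes. A gene counted as at level where its signal reached the median of all values on the arrays, 30.96. On the 4 arrays between 24 and 26 of the 37 genes were at level (64.9% to 70.3%), beside 51.9% to 52.7% of all genes. 21 genes were at level on all 4 arrays and 8 on none. Slfn2 (710 to 928), Trim25 (633 to 723) and Bst2 (327 to 412) were the brightest probe sets, and each stood at or above the 92.1st percentile of all genes on every array. Cmpk2 (7.11 to 7.89) and Ifit1 (6.96 to 10.8) had the lowest. Signals of different probe sets are not a comparison of transcript numbers.

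**Figure D2:**
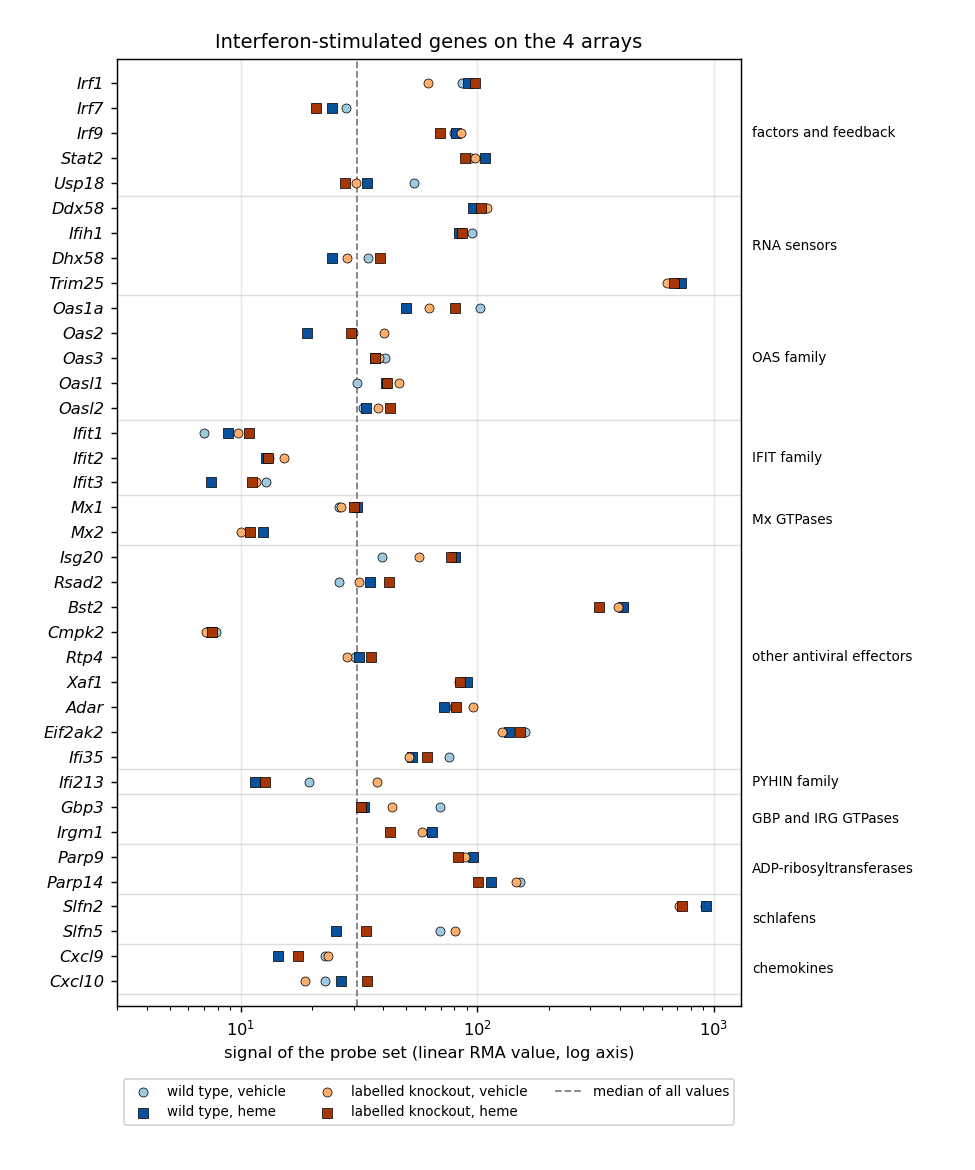
Signal of each of the 37 interferon-stimulated genes (linear RMA value on a log axis) on the wild-type arrays (blue) and labelled knockout arrays (orange), with pale circles for vehicle and dark squares for heme, grouped by role; the dashed line is the median of all values, 30.96. Of the 37 genes, 21 lie right of the line on all 4 arrays and 8 on none, among them all 3 Ifit genes.

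With heme, 4 of the 26 genes at level in wild type differed 2-fold or more: Slfn5, Gbp3 and Oas1a were lower and Isg20 was higher. In the labelled knockout 2 of 28 did, and both, Slfn5 and Ifi213, were lower. Over all genes at level the same rule counted 1.17% higher and 0.891% lower in wild type, and 1.2% higher and 0.452% lower in the labelled knockout. The 3 lower genes are 11.5% of the 26, and the 2 lower genes 7.14% of the 28. The median log2 difference of the 37 genes was -0.05 in wild type, and -0.01 for the labelled knockout, beside 0.00 and -0.02 for all genes. In both genotypes 18 genes were above 0 and 19 below it. With 32 added to every signal before log2, which shrinks differences between low signals, 0 of the 37 genes reached 2-fold in any of the 5 comparisons. The share of all genes that reached 2-fold with 32 added is not given here.

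**Figure D3:**
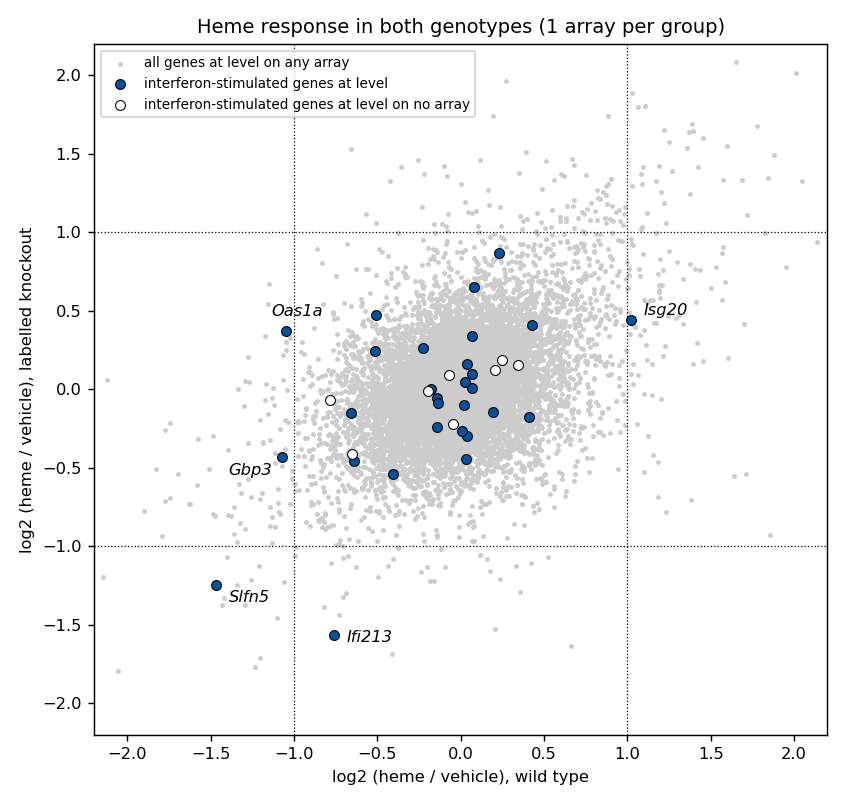
Log2 ratio of heme to vehicle for wild type (x axis) and the labelled knockout (y axis) for the interferon-stimulated genes (blue where at level on any array, white where on none) over all genes at level on any array (grey; 18 lie outside the axes); dotted lines mark 2-fold. Slfn5 lies beyond 2-fold lower on both axes, Ifi213 on the y axis alone, and Oas1a (lower) and Isg20 (higher) on the x axis alone, with Gbp3 lower there too.

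Where 4 signals of a gene are listed together, they run vehicle then heme for wild type, followed by vehicle then heme for the labelled knockout. Slfn5 encodes a nuclear member of the schlafen family, whose expression interferon raises. It read 69.7 with vehicle and 25.2 with heme in wild type, against 80.6 and 33.9 in the labelled knockout. Both vehicle arrays were above both heme arrays, and the 2 heme comparisons share no array. For this gene and those below, the share of all genes with such an order of the 4 arrays is not given. With heme, Slfn5 was 2.77-fold lower in wild type (log2 -1.47) and 2.38-fold lower in the labelled knockout (log2 -1.25). Of the 10460 genes at level in both heme comparisons, 16 (0.153%) were 2-fold or more lower in both, and Slfn5 was among them. With 32 added, the folds were 1.78 and 1.71. Slfn2, the other schlafen of the list, known for keeping T cells quiescent, read 912, 928, 710 and 733 in the same order and differed with heme by 1.02-fold and 1.03-fold. Among the other schlafens measured, Slfn3, Slfn4, Slfn8 and Slfn9 read between 26.7 and 80.0 and none reached 2-fold in any comparison. Slfn1 read 221 and 205 in wild type and 90.5 and 95.8 in the labelled knockout, vehicle first, a difference between genotypes of 2.44-fold in vehicle and 2.14-fold in heme.

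Ifi213 belongs to the PYHIN family of DNA-binding proteins. It read 19.3 with vehicle and 11.4 with heme in wild type, against 37.5 and 12.7 in the labelled knockout. Here too both vehicle arrays were above both heme arrays, but only the labelled knockout vehicle array reached the level. Heme was 2.96-fold lower in the labelled knockout (log2 -1.56) and 1.69-fold lower in wild type (log2 -0.76), where no array was at level. With 32 added, the knockout difference was 1.56-fold. Of the other PYHIN genes measured, Ifi207 read 616, 270, 542 and 343, which is 2.28-fold lower with heme in wild type and 1.58-fold lower in the labelled knockout. Ifi203 (210 to 318), Ifi209 (39.2 to 71.0) and Aim2 (232 to 342), the sensor of DNA in the cytosol, did not reach 2-fold in any comparison.

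The oligoadenylate synthetases detect double-stranded RNA and make the messenger that activates RNase L, while the OASL proteins lack or have weak synthetase activity. Oas1a read 103 with vehicle and 49.8 with heme in wild type, against 62.2 and 80.6 in the labelled knockout. Heme was 2.07-fold lower in wild type (log2 -1.05) and 1.30-fold higher in the labelled knockout (log2 0.37). The difference of the 2 heme responses, labelled knockout minus wild type, was 1.42 on the log2 scale, 2.68-fold. Oas1 genes have near-identical copies in mouse, so the signal assigned to Oas1a is uncertain. Oas2 read 29.8, 19.1, 40.1 and 29.2, and its highest and lowest arrays lay 2.10-fold apart, a pair that no comparison sets side by side. Oas3 (36.9 to 40.9), Oasl1 (41.2 to 46.9 except in wild-type vehicle, where it was just at level) and Oasl2 (33.0 to 42.6) stayed within 1.51-fold over the 4 arrays.

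Gbp3 encodes a guanylate-binding protein, a GTPase of defence inside the cell. It read 69.7 with vehicle and 33.2 with heme in wild type, against 43.5 and 32.3 in the labelled knockout. The difference with heme was 2.10-fold lower in wild type (log2 -1.07) and 1.35-fold lower in the labelled knockout (log2 -0.43). The wild-type vehicle array was the highest. The same array was the highest of the 4 for other guanylate-binding genes: Gbp7 read 156, 93.4, 65.3 and 74.6, Gbp8 read 232, 164, 154 and 146, and Gbp9 read 55.8, 36.8, 34.1 and 33.6. Of these, Gbp7 was 2.39-fold lower in the labelled knockout in vehicle. Irgm1, an immunity-related GTPase that regulates autophagy, read 62.8, 64.0, 58.1 and 42.7 and did not reach 2-fold.

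The wild-type vehicle array was also the highest for macrophage markers of the list that were 2-fold lower with heme, 4 of 11: C1qa, C1qb, C1qc and Fcgr1, itself an interferon-responsive Fc receptor, which read 237, 83.3, 84.7 and 59.7. These 4 were picked by their difference with heme in wild type, which in itself places its vehicle array above its heme array. Of all genes at level, 0.891% were 2-fold lower in that comparison. The median signal of the 11 markers was 764 with vehicle and 753 with heme in wild type, against 733 and 937 in the labelled knockout. Summed signals of the macrophage list were 20722 with vehicle and 18915 with heme in wild type, against 19697 and 19646 in the labelled knockout. Those of the dendritic cell list were 8060, 6385, 3031 and 2479, and its median signals were 89.9, 81.0, 46.4 and 53.3. Of its 12 markers 5 were at level on no array. Ccr7, Cd74 and H2-Aa, 3 of 7 at level, were 2-fold lower in the labelled knockout with either treatment. Of all genes at level, 1.14% were 2-fold lower there in vehicle and 0.973% in heme. The part of cell composition in the differences of Oas1a, Gbp3 and Usp18, all highest in wild-type vehicle, was not tested. Over all 37 genes, the vehicle array of wild type was the highest for 11 and its heme array for 10, and those of the labelled knockout for 9 and 7.

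Isg20, an exonuclease that degrades RNA, was the one gene of the list 2-fold higher with heme. It read 39.7 with vehicle and 80.5 with heme in wild type, against 56.9 and 77.3 in the labelled knockout. Both heme arrays were above both vehicle arrays. The difference was 2.03-fold in wild type (log2 1.02), just past the threshold, and 1.36-fold in the labelled knockout (log2 0.44), which did not reach it. Applying quantile normalization again brought the wild-type difference under 2-fold. Of 12 neutrophil markers, 11 were at level on at least 1 array, and their summed signal was also higher on each heme array than on its vehicle array (14323 against 11044 for wild type, 11745 against 9273 for the labelled knockout). Cxcr2, Mmp9 and Retnlg among them reached 2-fold higher in the same comparison as Isg20, and their part in its difference was not tested. Between genotypes, Retnlg was 2.57-fold higher in the labelled knockout in vehicle, and Cxcr2 2.33-fold lower in heme.

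**Figure D4:**
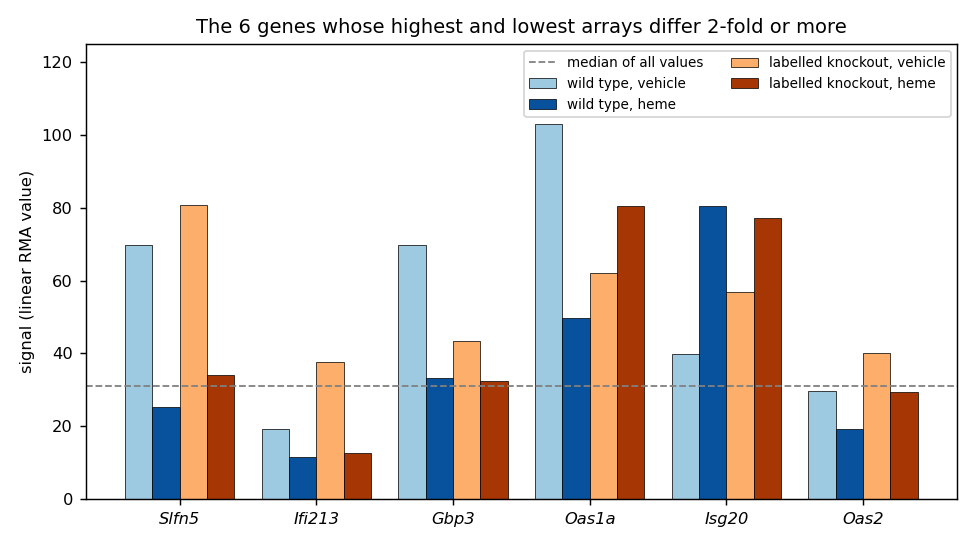
Signal (linear RMA value, axis from 0) of the 6 interferon-stimulated genes whose highest and lowest arrays differed 2-fold or more, 1 bar per array: blue for wild type and orange for the labelled knockout, pale for vehicle and dark for heme; the dashed line is the median of all values, 30.96. Slfn5 and Ifi213 are lower on both heme arrays than on both vehicle arrays, Isg20 is higher on both, and Gbp3 and Oas1a are highest in wild-type vehicle.

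The other antiviral effectors differed less. Bst2, the tetherin that holds budding virions at the cell surface, read 411, 412, 393 and 327. Eif2ak2, the kinase PKR that halts translation on double-stranded RNA, read 159, 136, 127 and 152, and Adar, which edits RNA, read 79.7, 72.2, 96.2 and 81.6. Neither reached 1.5-fold between any pair of arrays. Rsad2, the radical enzyme viperin, read 26.1, 35.1, 31.7 and 42.2, with heme 1.35-fold higher in wild type and 1.33-fold higher in the labelled knockout. Its neighbour in the genome, the nucleotide kinase gene Cmpk2, was far below the level on all 4 arrays (7.11 to 7.89). Ifi35 read 75.8, 53.2, 51.5 and 61.0, while Xaf1 (83.8 to 90.7) and Rtp4 (28.1 to 35.6) stayed within 1.26-fold.

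The Ifit proteins, which bind viral RNA, and the Mx GTPases, which trap viral nucleocapsids, are among the most inducible products of type I interferon. None of them was at level on any array: Ifit1 read 6.96 to 10.8, Ifit2 12.7 to 15.2 and Mx1 26.0 to 30.9, while Ifit3 read 12.8, 7.46, 11.6 and 11.1 and Mx2 read 10.8, 12.4, 10.0 and 10.9. Inbred B6 mice carry defective Mx1 alleles. The files hold no detection call, so how far such signals lie above background is unknown. The largest of these differences was that of Ifit3 with heme in wild type, 1.72-fold lower.

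Of the RNA sensors, Ddx58, which encodes RIG-I, read 95.9 to 110, and Ifih1, which encodes MDA5, 83.8 to 94.7. Trim25, the ubiquitin ligase of the RIG-I pathway, stayed within 1.14-fold. Dhx58, which encodes the regulatory sensor LGP2, read 34.5, 24.3, 28.0 and 38.9, lower with heme in wild type (1.42-fold) and higher in the labelled knockout (1.39-fold). The difference of its 2 heme responses was 0.98 on the log2 scale, just short of 2-fold.

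Among factors that carry or end the signal, Stat2 (88.5 to 108) and Irf9 (69.8 to 85.6), both parts of the ISRE-binding complex, stayed within 1.23-fold. Irf7, which amplifies type I interferon production, was below the level on all 4 arrays (20.7 to 27.9). Irf1, a factor induced by interferon gamma, read 86.1, 91.1, 62.1 and 97.5, with heme 1.57-fold higher in the labelled knockout, where its dimmer probe set differed the other way (46.1 and 41.5). Usp18, which removes ISG15 from proteins and blocks the type I receptor, read 53.7, 34.1, 30.6 and 27.6. It was 1.58-fold lower with heme in wild type and 1.76-fold lower in the labelled knockout in vehicle, the lowest value of the 37 genes in that comparison.

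Parp9 (82.7 to 96.1) and Parp14, ADP-ribosyltransferases that modify STAT signalling in macrophages, were at level throughout. Parp14 read 152, 114, 146 and 100.3, so that both vehicle arrays were above both heme arrays, by 1.33-fold in wild type and 1.45-fold in the labelled knockout. The chemokines that draw activated T cells were low. Cxcl10 read 22.6, 26.6, 18.7 and 34.0, and was 1.82-fold higher with heme in the labelled knockout, the highest value of the list there. Cxcl9 read 22.6, 14.4, 23.3 and 17.5 and was at level on no array.

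Between genotypes, 0 of 27 genes at level reached 2-fold in vehicle and 0 of 27 in heme. Over all genes at level, 0.525% were higher and 1.14% lower on the labelled knockout array in vehicle, and 0.519% higher and 0.973% lower in heme. The median of the 37 genes was -0.09 in vehicle and 0.03 in heme, beside 0.01 and 0.00 for all genes. The difference furthest above 0 in vehicle was that of Ifi213 (1.94-fold) and in heme that of Oas1a (1.62-fold), and Irgm1 was furthest below 0 in heme (log2 -0.59). For the difference of the heme responses, labelled knockout minus wild type, 1 of 29 genes at level, Oas1a, was 2-fold higher and 0 lower, beside 1.17% higher and 0.879% lower of all genes. The genotype comparisons and the heme comparisons use the same 4 arrays, so their values for a gene are not independent.

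The upstream part of the pathway was read from lists of other genes. Of the interferon and receptor genes, 14 of 17 were measured, and 8 or 9 of these were at level in each comparison. Of those at level 0 reached 2-fold. All genes at level gave 0.452% to 1.2% per comparison and direction. Of the ligand genes, Ifnb1 (7.73 to 8.34), Ifng (13.2 to 16.5), Ifna4 (6.03 to 9.26) and Ifne (6.37 to 8.80) were at level on no array. Ifna2 (33.1 to 48.3), Ifna5 (57.0 to 72.6) and Ifnl2 (103 to 127) were at level on all 4, and Ifnk (19.4 to 36.3) on 2. The level is no detection call, so these signals do not show that the ligand genes were expressed. Of the receptor genes, Ifnar1 (210 to 252), Ifnar2 (655 to 790), Ifngr1 (459 to 620), Ifngr2 (563 to 659) and Il10rb (229 to 304) were at level on all 4 arrays. Ifnlr1 (19.8 to 24.2) was at level on none. Of 20 signalling and sensor genes, 19 were at level in each comparison, and Jak2 was the only one past 2-fold. It encodes a kinase of the interferon gamma and GM-CSF receptors and read 454 with vehicle and 485 with heme in wild type, against 132 and 175 in the labelled knockout. It was 3.43-fold lower in the labelled knockout in vehicle and 2.77-fold lower in heme, 2 comparisons that share no array. Tbk1 and Ikbke, the kinases that activate IRF factors, were higher on both heme arrays than on both vehicle arrays (Tbk1 285, 427, 250 and 422; Ikbke 99.2, 146, 103 and 195) without reaching 2-fold.

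Of 71 further interferon-stimulated genes measured, heme in wild type was 2-fold higher for 2 (Gca and Mlkl) and 2-fold lower for 2 (Ifi207 and Fcgr1), of 62 at level. In the labelled knockout 3 of 63 were higher (Trim30d, Plac8 and Mlkl) and 0 lower. Of all genes at level, 1.17% were higher and 0.891% lower in wild type, and 1.2% and 0.452% in the labelled knockout. Mlkl, the effector of necroptosis, read 70.5, 185, 73.7 and 238, 2.62-fold and 3.23-fold higher with heme. Between genotypes, 2 of 64 were higher and 3 lower in vehicle, and 2 and 3 in heme. The shares of all genes at level were 0.525% and 1.14% in vehicle, and 0.519% and 0.973% in heme. Ifitm1, which encodes a membrane protein that restricts viral entry, read 3119 and 3126 in wild type and 848 and 1395 in the labelled knockout, vehicle first, 3.68-fold and 2.24-fold lower. Ccrl2, a chemoattractant-binding receptor, read 62.7 and 45.1 in wild type and 143 and 102 in the labelled knockout, 2.27-fold higher in both treatments. In heme, Ddx60, a helicase of the RNA sensing pathway, was 2.10-fold higher and the chemokine gene Ccl5 2.54-fold lower in the labelled knockout. The list medians lay between -0.16 and 0.11 in the 4 comparisons of 2 arrays. For the difference of the heme responses the median was 0.24, beside -0.003 for all genes and 0.03 for those at level. Of 64 genes at level, 2 (Plac8 and Fcgr1) were 2-fold higher there and 0 lower, beside 1.17% and 0.879% of all genes.

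Among 18 genes of interferon gamma GTPases, antigen loading and the immunoproteasome, 0 reached 2-fold with heme in either genotype, and Gbp7, Gbp11 and Ciita were 2-fold lower in the labelled knockout in vehicle. Ciita, the master activator of MHC class II genes, was the one that also reached 2-fold in heme (2.73-fold and 2.15-fold lower). It was 1 of 12 at level there, beside 0.973% of all genes lower. The difference of the heme responses had a list median of 0.21, beside -0.003 for all genes and 0.03 for those at level. Gbp11, 1 of 13 at level, was 2-fold higher there, beside 1.17% of all genes. Psmb9, Tap1 and B2m, which serve class I presentation, did not reach 2-fold in any comparison, with signals of 544 to 671, 137 to 143 and 5503 to 5685. Of the plasmacytoid dendritic cell markers, which stand for cells that make much type I interferon, 8 were measured, 6 were at level on at least 1 array, and their summed signal was 339 to 365. Siglech, their surface lectin, and Pacsin1 were at level on no array (16.0 to 19.3 and 17.1 to 20.6). Spib, a transcription factor of these cells, was 2.15-fold lower with heme in the labelled knockout (33.5 and 15.6).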

How the data were processed

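The data were whole-transcript microarray values of 4 samples, 1 per group. Per the submitters' processing notes the authors ran RMA, and the deposited table gives intensity on a linear scale; its version and a genome build are not given in the sources used here. The design text of the series describes other cells, and the sample labels were followed. The values were taken to log2, with no further scaling. Of 35556 probe sets, 21789 had a single gene symbol in the platform annotation and 1621 several; the probe set with the highest mean per gene was kept (19938 genes). All 37 measured genes matched the RefSeq gene table by Entrez number.

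Counted genes differed 2-fold or more, with at least 1 of the arrays compared at or above the median of all values. The 1 array per group limits the precision, and its size is unknown. The genes and lists were chosen with earlier results of these data known. Every member is named; all 4 values are given for members 2-fold apart in a comparison and for the member of each role with the largest range, and for some others. Genes of the other lists are named where 2-fold apart, with up to 3 more per list; the schlafen, PYHIN and GBP relatives, ligand, receptor and class I genes beyond that were added after their values were seen. The counting was tested on simulated data with 3-fold changes only, which says nothing of calls near 2-fold. Tools were pandas 2.3.3, numpy 2.4.6 and statsmodels 0.14.6 under Python 3.11.15, with figures by matplotlib 3.10.9.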

Additional observations from a re-analysis of the deposited data

Results flagged for a closer look

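The heme responses of Oas1a had opposite signs in the 2 genotypes, lower in wild type (log2 -1.05) and higher in the labelled knockout (log2 0.37), and their difference reached 1.42 on the log2 scale. With 1 array per group this difference was not tested.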

How the results depend on the processing

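Each choice was changed alone. At 1.5-fold, 5 genes were counted with heme in wild type, Isg20 higher and Oas1a, Usp18, Slfn5 and Gbp3 lower. In the labelled knockout 2 were higher with heme (Irf1 and Cxcl10), and Ifi213 and Slfn5 were lower as at 2-fold. Between genotypes, 2 were higher and 3 lower in vehicle, and 2 higher and 1 lower in heme. In the difference of the heme responses 5 were higher and 2 lower. The share of all genes at 1.5-fold is not given here, so these counts cannot be set beside it. At 3-fold, with the level set at the 75th percentile of all values (a signal of 106), or with 32 added before log2, 0 genes were counted in any comparison, in place of 1 higher and 3 lower with heme in wild type, 2 lower in the labelled knockout and 1 higher in the difference of the heme responses. The level of 106 lies above every signal of the 5 genes counted. Shares of all genes at 3-fold, at that level and with 32 added are not given here either. Quantile normalization applied again left 0 genes higher with heme in wild type and 2 higher in the difference of the heme responses, Oas1a and Dhx58, as did lowess centring for the latter (2). The median between genotypes in heme was -0.24 over members at the 75th percentile, in place of 0.03; other medians moved by less than 0.1. Without a level filter, all 10 counts were as before. They were also as before with the mean of probe sets, but that choice could change only Irf1, the 1 measured gene of the list with more than 1 probe set. Of the single differences of the 37 genes, 23 of 185 moved by more than the robust SD of all genes (0.25 to 0.32) with 32 added. Adding the same number to both signals cannot change the sign of a difference between 2 arrays, so signs were not a check here.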
